A study of Drosophila melanogaster with 12 samples.

Results

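The genes described here are those whose RNA level changed differently between 2 embryo collections in SHMT mutants than in wild type. For each gene the change in SHMT embryos (late label minus preblastoderm label) was set against the same change in wild-type embryos. All 12 libraries of the series were used, 3 in each of 4 groups. Of 14161 genes in the files, 6884 averaged at least 50 counts in at least 1 group and were tested, and 2649 of them (38.5%) differed in their stage change at an adjusted p under 0.05, 221 (3.21%) of them by over 4-fold. The wild type was OregonR. The mutant mothers carried clones of germ cells homozygous for SHMT[X238], a nonsense allele of the gene for serine hydroxymethyl transferase, so that egg and nurse cells lacked a functional copy while the surrounding follicle cells were heterozygous. The clones were induced by a heat shock of the mothers as larvae, which drove the recombinase. The genotypes also differ beyond SHMT, since the mutant chromosome was marked with pn, and the recombined X238 chromosome with pn also carries y, sn and an Frt site. By the labels, each genotype was collected as 0–1 hr embryos (preblastoderm) and as 1.5–2.5 hr embryos (late blastoderm). Only the labels give these times, and the RNAs that mark the stages ran against them (below). Embryos were collected by the time after egg lay, so that each library mixes whole embryos of several nuclear cycles. No treatment of the embryos themselves was given, and the labels do not say whether replicates came from separate parents, so the p-values measure the spread between these libraries.

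A fly egg is loaded by the mother with RNAs that run the first nuclear cycles. After egg activation these maternal RNAs are used, translated or degraded, and the embryo's own genes are switched on in a wave around the midblastula transition, when the cycles slow and the syncytium is divided into cells. SHMT moves a one-carbon unit from serine to tetrahydrofolate, which feeds the synthesis of purines, thymidylate and S-adenosylmethionine.

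The stage labels ran against the RNAs that mark the stages, in both genotypes. The summed level of 8 zygotic markers (among them eve, ftz, sna and slam) was 2154 to 7404 CPM (read counts set to a common library size, scaled by the trimmed mean of M values) in the libraries labelled 0–1 hr and 148 to 217 CPM in those labelled 1.5–2.5 hr. The sum of 8 maternal markers (among them bcd, nos, osk and png) was 297 to 723 CPM under the 0–1 hr label and 1841 to 2753 CPM under the other. The groups are therefore named by their labels throughout, and exchanging the labels in both genotypes would turn the sign of every interaction and change no size or p. The libraries held 21045142 to 35106444 counts in genes. In the 0–1 hr SHMT group, replicate 3 differed from replicates 1 and 2 by a chi-square of 55.7 and 60.1 per degree of freedom. That pair differed by 11.6, where counting error alone gives about 1. The zygotic marker sum of replicate 3 was 4552 CPM against 2154 and 2232. Such gaps were not particular to this library. The wild-type 0–1 hr pairs gave 51.0, 61.6 and 62.7, and replicates 1 and 2 of the 1.5–2.5 hr SHMT group gave 42.1. In the wild-type 0–1 hr group the zygotic sum of replicate 2 was 4403 CPM against 7403 and 7404. Markers of follicle cells, adult gut and fat body, and older embryos each summed to at most 5.99 CPM in any library. Of 6 genes listed as testis markers 2 were at 0 throughout and 1, bam, passed the count minimum. A sum carried by 1 gene was not read as testis RNA. bam carried the sum of the 6 (13.5 to 17.2 CPM in wild type against 53.05 to 65.2 CPM in the mutants at the 0–1 hr label) and was itself lower (−1.57). In RNA of whole embryos, fewer cells of a kind, less RNA per cell and another mixture of embryo ages cannot be told apart.

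Most of the difference lay on the side of the 0–1 hr label, where the zygotic marker sums were higher in both genotypes. An interaction is called lower where SHMT relative to wild type was lower at the 1.5–2.5 hr label than at the 0–1 hr label, and higher in the opposite case. Of the genes tested, 1810 (26.3%) were lower and 839 (12.2%) were higher, and 172 (2.5%) and 49 (0.712%) of these exceeded 4-fold. The split between directions moved with the scaling: higher calls made up 31.7% of all calls here, 42.4% with relative log expression scaling, 45.3% with DESeq2 and 13.6% with library sizes alone. The median log2 interaction of all genes tested was −0.05 here and −0.29 with library sizes alone, so that values near these medians depend on the scale. When the 4-fold limit was tested itself rather than applied to the estimate, 12 lower and 2 higher genes passed. At the edge of the call stood CG7728 (adjusted p = 0.0499) on the inside and rho-7 (adjusted p = 0.0502) on the outside, by edgeR's quasi-likelihood test, and at the edge of 4-fold CG9752 (−2.001) and rdx (−1.999).

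Most lower genes had their highest level under the 1.5–2.5 hr label, and most higher genes under the 0–1 hr label. In the lower set, the highest group mean belonged to a 1.5–2.5 hr group for 987 (wild type, 54.5%) and 568 (SHMT, 31.4%) of 1810 genes. Of all genes tested 24.6% and 22.9% were highest in these groups. At the 0–1 hr label 248 lower genes were highest in SHMT and 7 in wild type. In the higher set, 697 of 839 genes (83.1%) were highest in the wild type labelled 0–1 hr, where 38.3% of all genes tested had their highest mean. At the 1.5–2.5 hr label 33 higher genes were highest in wild type and 101 in SHMT. The median change from the 0–1 hr to the 1.5–2.5 hr label, on the log2 scale, was 2.83 in wild type and 1.63 in SHMT for the lower genes. For the higher genes it was −1.32 and −0.53. The change had the same direction and a smaller size in SHMT for 82.8% of the lower genes, against 67.8% of all genes tested. For the higher genes the share was 70.1%, close to that of all genes. The lower and higher genes were chosen by the interaction, so these shares are descriptions.

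**Figure D1:**
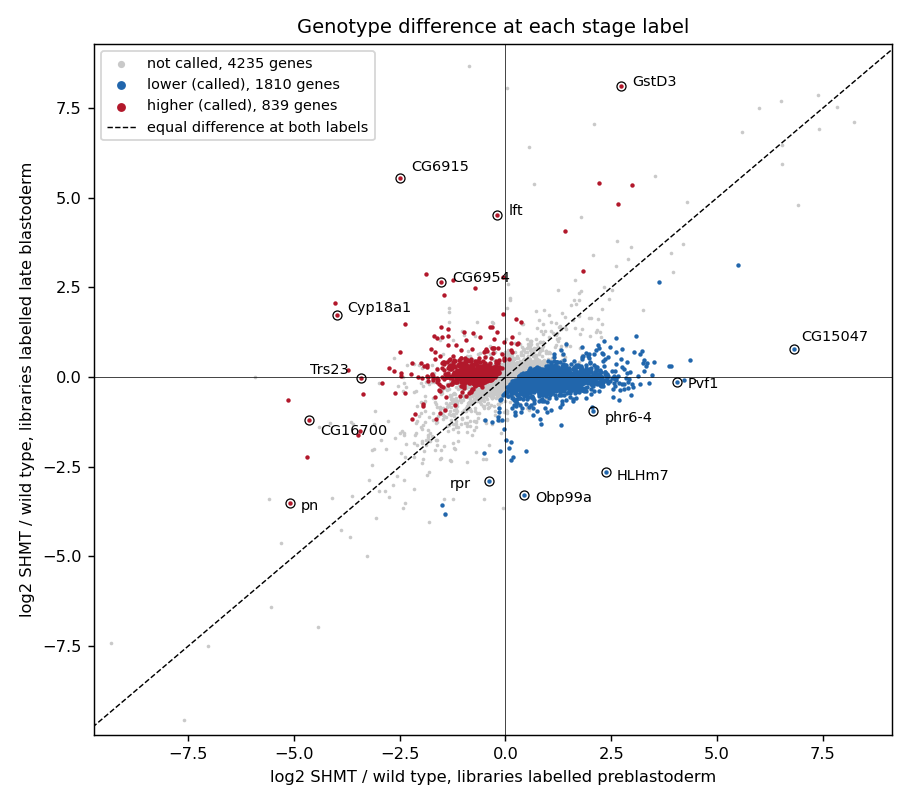
Each point is 1 of 6884 genes, with the log2 ratio of SHMT to wild type in the libraries labelled preblastoderm (0–1 hr) on the x axis and in those labelled late blastoderm (1.5–2.5 hr) on the y axis. The 1810 lower genes (blue) and the 839 higher genes (red) lie below and above the dashed line of equal difference, most of them close to 0 on the y axis, and CG6915, GstD3, HLHm7, Obp99a and rpr lie away from it.

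The genotype difference of the called genes was wide at the 0–1 hr label and narrow at the other. Of all genes tested, 58.7% differed between genotypes at the 0–1 hr label and 7% at the 1.5–2.5 hr label. The first of these is the label with the higher zygotic marker sums. The median log2 genotype difference was 1.00 at the 0–1 hr label and −0.07 at the 1.5–2.5 hr label for the lower genes. For the higher genes it was −0.63 and 0.09. At the 0–1 hr label, all 3 SHMT libraries lay above all 3 wild-type libraries for 1646 of the 1810 lower genes (32.7% of all genes tested), and below them for 709 of the 839 higher genes (27.3% of all genes). At the 1.5–2.5 hr label the SHMT libraries all lay below wild type for 649 lower genes (22.3% of all genes) and above it for 248 higher genes (14.5%). These shares follow from the way the genes were chosen and are descriptions. The median position of SHMT replicate 3 relative to the wild-type mean was 0.71 for the lower genes and −0.41 for the higher genes, nearer to wild type than replicates 1 and 2 (0.87 and 1.05, −0.74 and −0.77). The marker sums moved the same way at this label: maternal markers summed to 546 to 723 CPM in SHMT and 297 to 393 CPM in wild type, and zygotic markers to 2154 to 4552 and 4403 to 7404 CPM. Their part in the result was not tested. Without replicate 3 of the 0–1 hr SHMT group the counts were 1050 higher and 1920 lower, and without replicate 1 of that group the higher count dropped to 531.

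Most of the lowest interactions belonged to RNAs that were almost missing in the wild-type 0–1 hr libraries and present in the other 3 groups. CG15047, an uncharacterised gene of the X chromosome, was at 0.304, 0.781 and 0.149 CPM in the 0–1 hr wild type against 42.9, 47.2 and 44.9 CPM in the 0–1 hr mutants. At the 1.5–2.5 hr label its levels were 29.98, 44.3 and 37.2 CPM in wild type against 64.3, 64.6 and 64.9 CPM in SHMT. All SHMT libraries lay above all wild-type libraries of their label, with a gap that was far wider at the first label, a log2 interaction of −6.03 ± 0.35 (SE, adjusted p = 1.2e-06, edgeR's quasi-likelihood test, as for all adjusted p-values here). Without replicate 2 of the wild-type 0–1 hr group it was −6.75.

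Pvf1, which encodes a ligand of the PDGF and VEGF receptor family, had 4.51, 7.47 and 5.02 CPM in wild type against 94.0, 83.4 and 100.1 CPM in the mutants at the 0–1 hr label. Under the other label it had 64.8, 64.6 and 65.1 CPM in wild type against 55.4, 63.0 and 57.9 CPM in SHMT. Every SHMT library lay slightly below every wild-type one there, but the difference did not pass the test (adjusted p = 0.68). Its log2 interaction was −4.18 ± 0.21 (adjusted p = 7.1e-07). Tgt, the catalytic subunit of the enzyme that puts queuine into tRNA, had 0.894 to 1.52 CPM in wild type against 17.0 to 27.3 CPM in the mutants at the 0–1 hr label, and overlapping levels of 22.7 to 31.4 CPM in both genotypes at the other (log2 interaction −4.29 ± 0.32).

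gammaTub37C, the γ-tubulin that the mother supplies for the first divisions, was at 4.78, 8.53 and 6.56 CPM in wild type and at 63.6, 98.6 and 132 CPM in the mutants at the 0–1 hr label. Under the 1.5–2.5 hr label the genotypes lay close, with 101 to 131 CPM in wild type against 132 to 165 CPM in SHMT. They did not overlap there either, but the difference did not pass the test (adjusted p = 0.57). The log2 interaction was −3.59 ± 0.36. Usf, a basic helix-loop-helix transcription factor, had 3.18 to 3.83 CPM in wild type against 30.7 to 45.2 CPM in the mutants at the 0–1 hr label, and 59.2 to 71.3 CPM over both genotypes at the other (−3.38 ± 0.20). The same shape was seen in CG3626 (−3.87), CG12024 (−3.56), CG5285 (now Smug, −3.46) and CG14721 (−3.36, or −4.10 without replicate 3 of the wild-type 0–1 hr group). CG42514 (−3.55) was low in both genotypes at the 0–1 hr label, with 1 count over the 3 wild-type libraries and 18 counts over the SHMT ones. Its fitted value depends on the prior count, and it missed the threshold without replicate 2 of the 0–1 hr SHMT group (−2.62, adjusted p = 0.098), without replicate 1 (−2.93, adjusted p = 0.091) or replicate 2 (−3.18, adjusted p = 0.066) of the wild-type group with that label, and moved to −5.72 without its replicate 3.

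**Figure D2:**
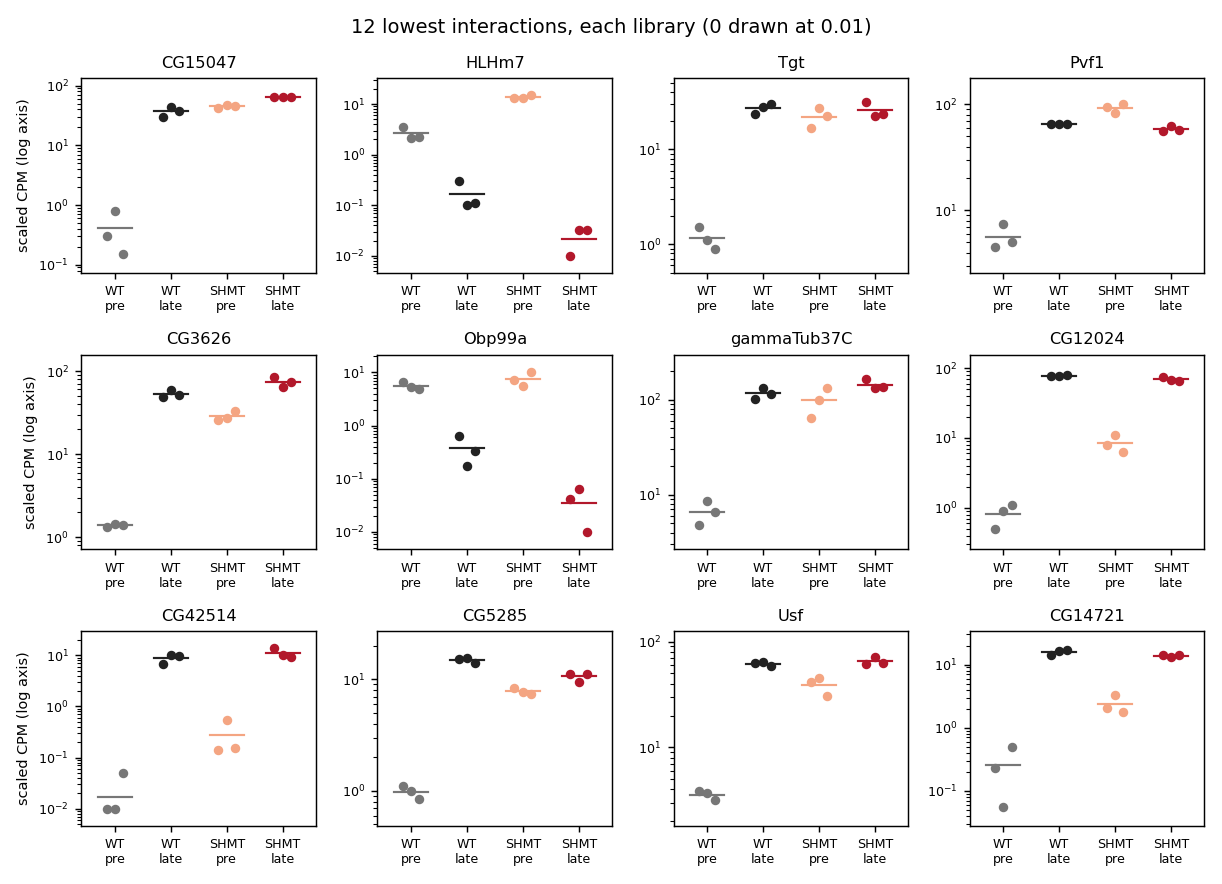
Scaled CPM on a log axis in each of the 12 libraries for the 12 genes with the lowest log2 interaction, with a bar at the group mean (pre, 0–1 hr label; late, 1.5–2.5 hr label). In 10 genes the wild-type 0–1 hr libraries are lowest (CG15047 at 0.149 to 0.781 CPM), though CG42514 is also low in the SHMT 0–1 hr libraries, while HLHm7 and Obp99a are lowest in the SHMT libraries labelled 1.5–2.5 hr.

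In a few of the lower genes SHMT libraries were near 0 at the 1.5–2.5 hr label. HLHm7, a repressor of the Enhancer of split complex that responds to Notch, had 2.12 to 3.53 CPM in wild type against 13.3 to 14.9 CPM in the mutants at the 0–1 hr label. Under the other label it had 0.302, 0.0995 and 0.108 CPM in wild type against 0, 0.0318 and 0.0318 CPM in SHMT. The log2 genotype difference passed the test at the 0–1 hr label (2.38) and not at the other (−2.65, adjusted p = 0.073). Its log2 interaction was −5.03 ± 0.80 (adjusted p = 5.8e-04), a fitted value that rests on 2 counts over 3 SHMT libraries and was −4.36 without replicate 1 of the wild-type 1.5–2.5 hr group. It was the one call among 6 genes tested of the Enhancer of split and Bearded complexes, 16.7% against 38.5% of all genes tested. Obp99a, an odorant-binding protein gene, had 4.87 to 6.49 CPM in wild type against 5.53 to 10.04 CPM in the mutants at the 0–1 hr label, and 0.174 to 0.631 CPM against 0 to 0.0636 CPM at the other, with 3 counts over the SHMT libraries (−3.73 ± 0.85, −3.14 without replicate 1 of the wild-type group and −4.51 without replicate 2 of the SHMT group of that label).

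The cell death gene rpr, which frees caspases by binding their inhibitor, was also near 0 in the SHMT libraries labelled 1.5–2.5 hr. It stood at 8.12, 6.92 and 7.50 CPM in wild type against 5.52, 5.13 and 6.70 CPM in the mutants at the 0–1 hr label, and at 1.02, 0.647 and 0.217 against 0.0408, 0.159 and 0.0318 CPM at the 1.5–2.5 hr label. SHMT lay below wild type at both labels, but the log2 difference passed the test only at the second (−2.90, adjusted p = 0.016). At the first it was −0.38 (adjusted p = 0.35). The log2 interaction was −2.52 ± 0.74 (adjusted p = 0.020). The adjusted p was 0.053 without replicate 1 (−2.28) and 0.066 without replicate 3 (−2.13) of the 1.5–2.5 hr SHMT group, and the value moved to −3.58 without its replicate 2. egr, the fly's tumour necrosis factor, had 5.18 to 6.12 CPM in wild type against 1.14 to 1.46 CPM in the mutants at the 1.5–2.5 hr label. Its levels overlapped at the 0–1 hr label (−1.61 ± 0.37, adjusted p = 0.0060). Of 12 cell death genes tested, 4 were lower (rpr, egr, Corp and Ark) and none was higher, where 26.3% of all genes tested were lower, so that the count is near that share. The median log2 interaction was −0.50 against −0.05 for all genes, and 8 were lower with library sizes alone.

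In 49 genes (0.712%) the genotype difference passed the test at both labels in opposite directions. SHMT was above wild type at the 0–1 hr label and below it at the 1.5–2.5 hr label in 44 of them (0.639% of all genes), and the reverse held for 5 (0.0726%). The photolyase phr6-4, which repairs ultraviolet damage in DNA, had 3.91, 4.24 and 4.17 CPM in wild type against 17.7, 21.3 and 12.9 CPM in the mutants at the 0–1 hr label, and 66.6, 62.1 and 64.7 against 31.9, 35.7 and 32.1 CPM at the other. No library overlapped the other genotype at either label. The log2 genotype difference was 2.08 at the 0–1 hr label and −0.95 at the other (interaction −3.03 ± 0.22, adjusted p = 5.7e-06).

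rux, an inhibitor of cyclin-dependent kinase, crossed in the same way. Its log2 genotype difference was 2.69 at the 0–1 hr label and −0.64 at the 1.5–2.5 hr label. Its 0–1 hr libraries had 0.892 to 1.37 CPM in wild type against 6.24 to 8.85 CPM in SHMT, and its 1.5–2.5 hr libraries 14.1 to 16.9 and 9.43 to 10.3 CPM. CG5285 (Smug), CG11534 (DEF8), CG8027 (Gnptab), slif and CG2144 (PIG-G) did likewise with log2 interactions of −3.46, −2.50, −1.89, −1.81 and −1.40. slif carries cationic amino acids into cells, Gnptab tags lysosomal enzymes and PIG-G acts on the GPI anchor. The 5 genes that crossed the other way were CG6915, CG6954 (wake), insc, CG4896 and toc. The count of 49 rested on single libraries: it was 22 without replicate 3 of the 1.5–2.5 hr SHMT group and 111 without replicate 3 of the 0–1 hr SHMT group, and 103 with DESeq2.

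The highest interactions were of several shapes. CG6915, one of 2 older models that the current annotation joins as CG43163, was lower in SHMT at the 0–1 hr label and higher at the other. It had 39.1, 13.8 and 30.8 CPM in wild type against 4.24, 3.13 and 7.67 CPM in the mutants at the 0–1 hr label, and 0.439, 0.373 and 0.407 against 28.8, 13.0 and 15.9 CPM at the 1.5–2.5 hr label. The level in SHMT was thus higher at the second label than at the first, while in wild type it was close to 0 there, and the log2 interaction was 8.03 ± 0.70 (adjusted p = 1.8e-05). wake (CG6954), which acts in the fly's clock output to sleep, had 66.8, 11.8 and 24.5 CPM in wild type at the 0–1 hr label and 0.922 to 1.92 CPM at the other, against 9.48 to 14.3 and 6.77 to 11.9 CPM in SHMT (4.19 ± 0.77, and 3.26 without replicate 1 of the wild-type 0–1 hr group).

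Trs23, a subunit of the TRAPP complex in membrane traffic, had the smallest SE of the 12 highest interactions (0.17). Its 3 SHMT libraries labelled 0–1 hr held 1.57, 1.50 and 1.65 CPM, and the other 9 libraries 16.2 to 23.3 CPM. The gap lay in that 1 group alone, and the log2 interaction was 3.40 ± 0.17 (adjusted p = 7.1e-07). CG1673 (Bcat, the branched-chain amino acid aminotransferase) showed the same shape with more spread, at 0.979 to 1.43 CPM in that group and 4.13 to 14.99 CPM in the other 9 libraries (3.02 ± 0.61, and 2.33 without replicate 1 of the wild-type 0–1 hr group). CG16700 had 0.103 to 0.181 CPM in the SHMT 0–1 hr libraries, 1.27 to 2.04 CPM in the SHMT 1.5–2.5 hr libraries and 3.26 to 4.18 CPM in the 6 wild-type libraries (3.44 ± 0.38).

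GstD3, a glutathione transferase of the delta class, was high in the SHMT 1.5–2.5 hr libraries alone. These held 48.2, 41.5 and 38.8 CPM against 0.11, 0.149 and 0.190 CPM in wild type, while at the 0–1 hr label SHMT had 0.810, 1.63 and 1.29 CPM and wild type 0.417, 0.0558 and 0 CPM. SHMT lay above wild type at both labels, with log2 differences of 2.74 and 8.12. The interaction of 5.38 ± 1.01 (adjusted p = 0.0017) rests on 12 counts over the wild-type 0–1 hr libraries, and without replicate 1 of that group it was 2.77 and missed the threshold (adjusted p = 0.29). Whether reads from neighbouring genes of the delta cluster were counted in GstD3 was not tested, so the level of this gene is uncertain.

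Several higher genes had levels near 0 at the 1.5–2.5 hr label in both genotypes, and their calls rested on few counts. DNaseII, an acid nuclease, had 7.47 to 10.6 CPM in wild type against 1.41 to 2.21 CPM in the mutants at the 0–1 hr label, but only 2 and 5 counts over the libraries of the other. Its interaction of 3.85 fell to 2.40 (adjusted p = 0.39) without replicate 3 of the 1.5–2.5 hr SHMT group, was 3.39 (adjusted p = 0.062) and 3.38 (adjusted p = 0.063) without replicates 1 and 3 of the wild-type group of that label, and 6.07 without its replicate 2.

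lft, which binds the cadherins Fat and Dachsous, and CG4221 (Fbxl7, an F-box protein) rested on 1 library. lft had 0.0816, 3.69 and 0.0636 CPM and CG4221 0.0408, 1.21 and 0.0318 CPM in replicates 1, 2 and 3 of the 1.5–2.5 hr SHMT group. Without replicate 2 the log2 interaction of lft went from 4.72 to 0.60 and that of CG4221 from 3.74 to 0.26, and neither was called (adjusted p = 0.73 and 0.95). In that same library 90 chitin and cuticle genes summed to 66.0 CPM, against 4.40 to 8.91 CPM in the other 5 libraries of the label. Of those 90 genes 3 passed the count minimum, and none was called (1 at an unadjusted p under 0.05, and 0 with DESeq2). Whether this bears on the levels of lft and CG4221 was not tested. melt, a modulator of insulin signalling, and sick (sickie) had 0.191 to 0.286 and 0.122 to 0.191 CPM in SHMT against 0 to 0.0746 and 0.0271 to 0.0824 CPM in wild type at the 1.5–2.5 hr label. Their interactions of 3.94 (adjusted p = 0.026) and 2.94 (adjusted p = 0.029) missed the threshold without some single libraries, with adjusted p of 0.058 to 0.069 for melt and 0.051 to 0.082 for sick. That of melt was 3.20 without replicate 1 of the wild-type 0–1 hr group and 5.05 without replicate 2 of the wild-type 1.5–2.5 hr group. Cyp6d2, a cytochrome P450, had 6.41 to 11.6 CPM in wild type against 0.762 to 0.907 CPM in the mutants at the 0–1 hr label and overlapping levels at the other (2.90 ± 0.76, and 2.02 without replicate 3 of the 1.5–2.5 hr SHMT group). It missed the threshold without the pair of 0–1 hr libraries that had over 11% of reads outside genes (2.51, adjusted p = 0.061).

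**Figure D3:**
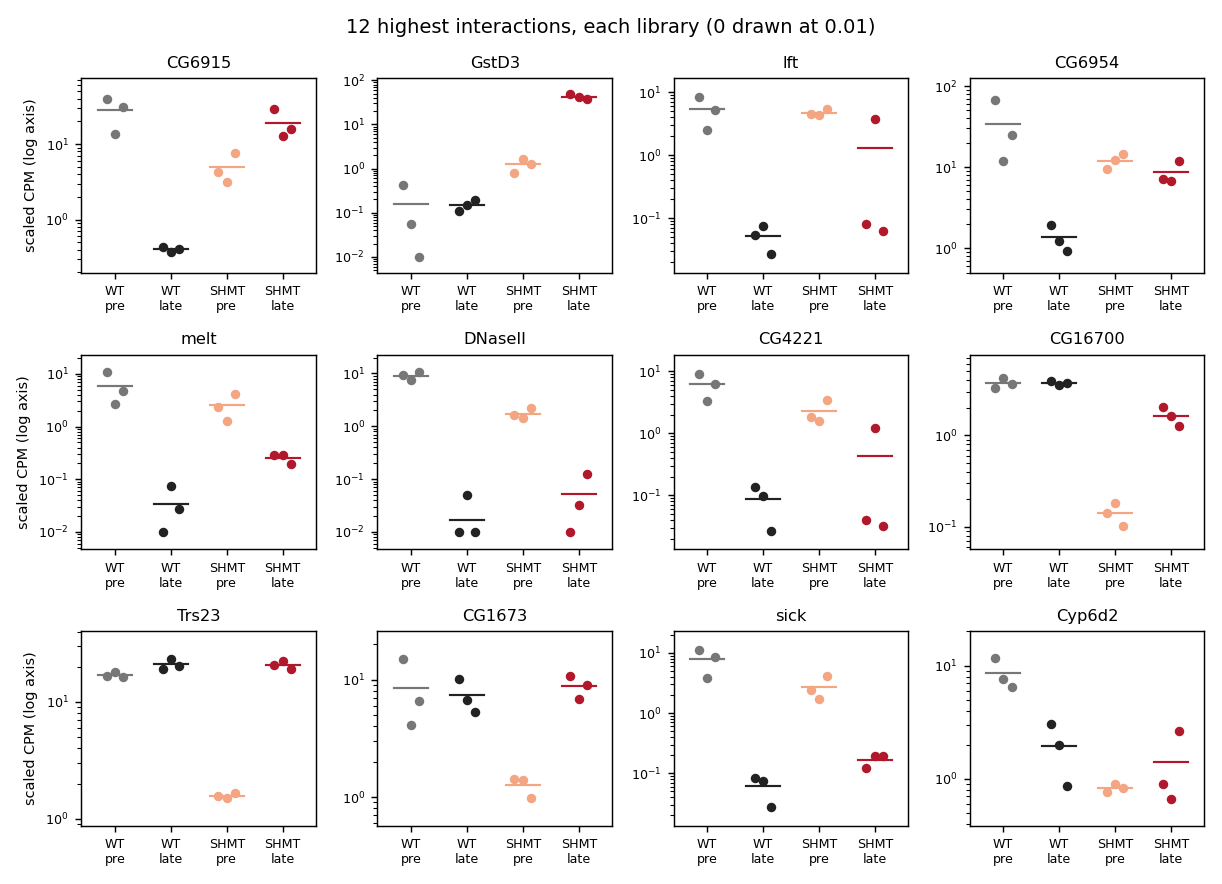
Scaled CPM on a log axis in each of the 12 libraries for the 12 genes with the highest log2 interaction, with a bar at the group mean (pre, 0–1 hr label; late, 1.5–2.5 hr label; values of 0 drawn at 0.01). Trs23, CG1673 and CG16700 are lowest in the SHMT 0–1 hr libraries, GstD3 is high only in the SHMT 1.5–2.5 hr libraries at 38.8 to 48.2 CPM, and in lft and CG4221 1 of 3 SHMT libraries of that label stands alone.

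Genes of the cell cycle, of DNA replication and of DNA repair were called in both directions, except the repair genes, whose calls were all lower. Of 19 genes tested for DNA repair and its checkpoint, 10 were lower and none was higher (median log2 interaction −0.80). Of 20 cell cycle regulators 9 were lower and 1, CycB3, was higher (median −0.28), and of 23 replication genes 9 were lower and 4 higher (median −0.33). The corresponding shares of all genes were 26.3% lower and 12.2% higher, with a median of −0.05. Of the calls for replication genes 9 of 13 were lower, close to the 1810 of 2649 over all genes. With library sizes alone the lower counts were 15, 11 and 12. With DESeq2 the repair, cell cycle and replication lists had 9, 8 and 8 lower genes and 0, 4 and 5 higher ones.

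stg, the Cdc25 phosphatase that drives entry into mitosis, had 17.8, 25.8 and 25.8 CPM in wild type against 158, 187 and 120 CPM in the mutants at the 0–1 hr label. Under the 1.5–2.5 hr label it had 564 to 575 CPM in wild type against 668 to 717 CPM in SHMT. SHMT was above wild type at both labels without overlap, but the difference at the second label did not pass the test (adjusted p = 0.42). The SHMT libraries all lay above wild type at that label for 14.5% of all genes tested. The log2 difference of stg was 2.75 at the 0–1 hr label and 0.27 at the 1.5–2.5 hr label (interaction −2.48 ± 0.23, adjusted p = 2.4e-05). The inhibitory kinase Myt1 (−2.09), the phosphatase subunit tws (−1.81) and Rca1, an inhibitor of the anaphase-promoting complex (−1.77), were also lower, while twe, the second Cdc25 of the fly, was not called (−0.21, adjusted p = 0.22).

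RpA-70, the large subunit of the protein that coats single-stranded DNA, had 5.52 to 6.45 CPM in wild type against 25.9, 45.6 and 22.6 CPM in the mutants at the 0–1 hr label, and 388 to 434 CPM over both genotypes at the other (−2.37 ± 0.29). Mcm2, a subunit of the replicative helicase, had 26.7 to 29.2 CPM in wild type against 86.8 to 99.5 CPM in the mutants at the 0–1 hr label. At the other label its levels overlapped at 280 to 307 CPM, with an interaction of −1.67 ± 0.11. Of the origin recognition complex, Orc4 (−1.60) and Orc5 (−1.09) were lower and Orc1 was higher (1.19, chosen after its values were seen). Among the repair genes the end-joining factors Lig4 (−2.20) and Irbp, the fly's Ku70 (−1.85), and the helicase gene mus309, now Blm (−1.70), were lower, beside phr6-4. Lig4 was at −3.07 without replicate 1 of the wild-type 0–1 hr group.

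RNAs placed in the egg for the germ line and the body axes included both lower and uncalled genes. In the germ plasm list 5 of 12 genes were lower (osk, vas, gcl, piwi and tud) and pum was higher, against 26.3% lower and 12.2% higher of all genes tested. vas, an RNA helicase of the pole plasm, had 8.31 to 11.2 CPM in wild type against 31.6 to 48.9 CPM in the mutants at the 0–1 hr label, and 214 to 246 against 254 to 281 CPM at the other (−1.75 ± 0.23, adjusted p = 1.7e-04). gcl (−1.71), which acts in pole cell formation, and piwi (−1.30), which silences transposons, were lower too. pum, a repressor of translation, had 297 to 408 CPM in wild type against 128 to 194 CPM in the mutants at the 0–1 hr label and overlapping levels at the other (1.47 ± 0.29, adjusted p = 0.0026). The other 6 genes of the list (nos, pgc, aub, orb, ovo and vls) were not called, and osk (−2.87) and tud (−0.85) were named after their values were seen.

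Of 18 genes for the maternal axes and RNA localization, 7 were lower and none was higher (median −0.33), against 26.3% and 12.2% of all genes. They included egl, which links RNAs to dynein, with 4.40 to 5.66 against 16.9 to 27.5 CPM at the 0–1 hr label and 192 to 208 CPM over both genotypes at the other (−2.12 ± 0.21). The others named by the rule were swa (−1.68), needed to place bcd RNA, spz (−1.68), the ligand of Toll, and CG4771 (now vret, −1.68). With DESeq2, 7 of the 18 genes were lower and 3 were higher. Of 16 genes for egg activation and maternal RNA decay, 5 were lower, among them gnu (−2.03), a partner of the PNG kinase, the poly(A) polymerase wisp (−1.21) and the repressor brat (−1.07), and pum was higher. That count is close to the 26.3% of all genes. smg, which starts the decay of many maternal RNAs, was not called (−0.43, chosen after its values were seen). These genes had their highest levels where the maternal marker sums were highest, and 3 of the 8 maternal markers were themselves lower (osk, gcl and swa). The part of the marker sums in these calls was not tested.

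The segmentation and patterning genes, which carry the zygotic wave, were almost never called. No gene passed among 10 gap genes, 9 pair-rule genes, 6 segment polarity genes and 14 dorsoventral genes, where 38.5% of all genes tested did. Their median log2 interactions were nonetheless 0.49, 0.52, 0.69 and 0.36. At an unadjusted p under 0.05 edgeR gave 1 gap gene and none of the other lists, and DESeq2 called 1 gene in each of the first 3 lists and none in the fourth. All 8 zygotic markers were likewise uncalled. At the 1.5–2.5 hr label pair-rule RNAs summed to 0.254 to 5.42 CPM over 9 genes, so few counts stood behind that side of the contrast.

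Of 13 guidance and adhesion genes tested, 5 were higher and none was lower, where 12.2% of all genes tested were higher. sli, the secreted ligand Slit, had 83.1, 36.5 and 91.4 CPM in wild type against 20.5, 13.9 and 28.4 CPM in the mutants at the 0–1 hr label. Under the other label it had 3.90, 3.96 and 4.50 CPM in wild type against 8.33, 5.60 and 7.54 CPM in SHMT. SHMT was below wild type at the first label and above it at the second without overlap at either, although only the first difference passed the test (interaction 2.55 ± 0.48, adjusted p = 0.0017). CG33464, an older model that now also carries the name sli, gave 2.83, so the 2 values are not independent.

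robo, the receptor of Slit, had 29.8 to 51.3 CPM in wild type against 8.21 to 12.5 CPM in the mutants at the 0–1 hr label, and 0.325 to 1.08 CPM over both genotypes at the other (2.40 ± 0.51). gogo (2.27), a receptor of photoreceptor axons, sick (2.94) and the adhesion protein Nrt (1.08) were higher as well. Without both 0–1 hr libraries that had over 11% of reads outside genes Nrt missed the threshold (0.80, adjusted p = 0.074). Of 9 cellularization genes, kuk (0.47) and Bsg25D (0.85) were higher, 22.2% called against 38.5% of all genes tested. kuk, a protein of the nuclear envelope, missed the threshold without 7 of the 12 single libraries (adjusted p = 0.055 to 0.068) and with library sizes alone (0.24, adjusted p = 0.17). slam (0.93, adjusted p = 0.10) and trbl (0.65, adjusted p = 0.11) were not called, but were with DESeq2, without replicate 3 of the 0–1 hr SHMT group (1.43 and 0.95) and without replicate 2 of the wild-type group of that label (1.16 and 0.81). Of 10 genes for X counting and dosage compensation, msl-2 (1.71) and mof (0.54), subunits of the complex that doubles X transcription in males, were higher. That is 20% called, against 38.5% of all genes tested. The list median of 0.15 turned to −0.09 with library sizes alone, and mof was not called then (adjusted p = 0.18) nor without any of 9 single libraries. msl-2 missed the threshold without both libraries named above (1.23, adjusted p = 0.058).

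**Figure D4:**
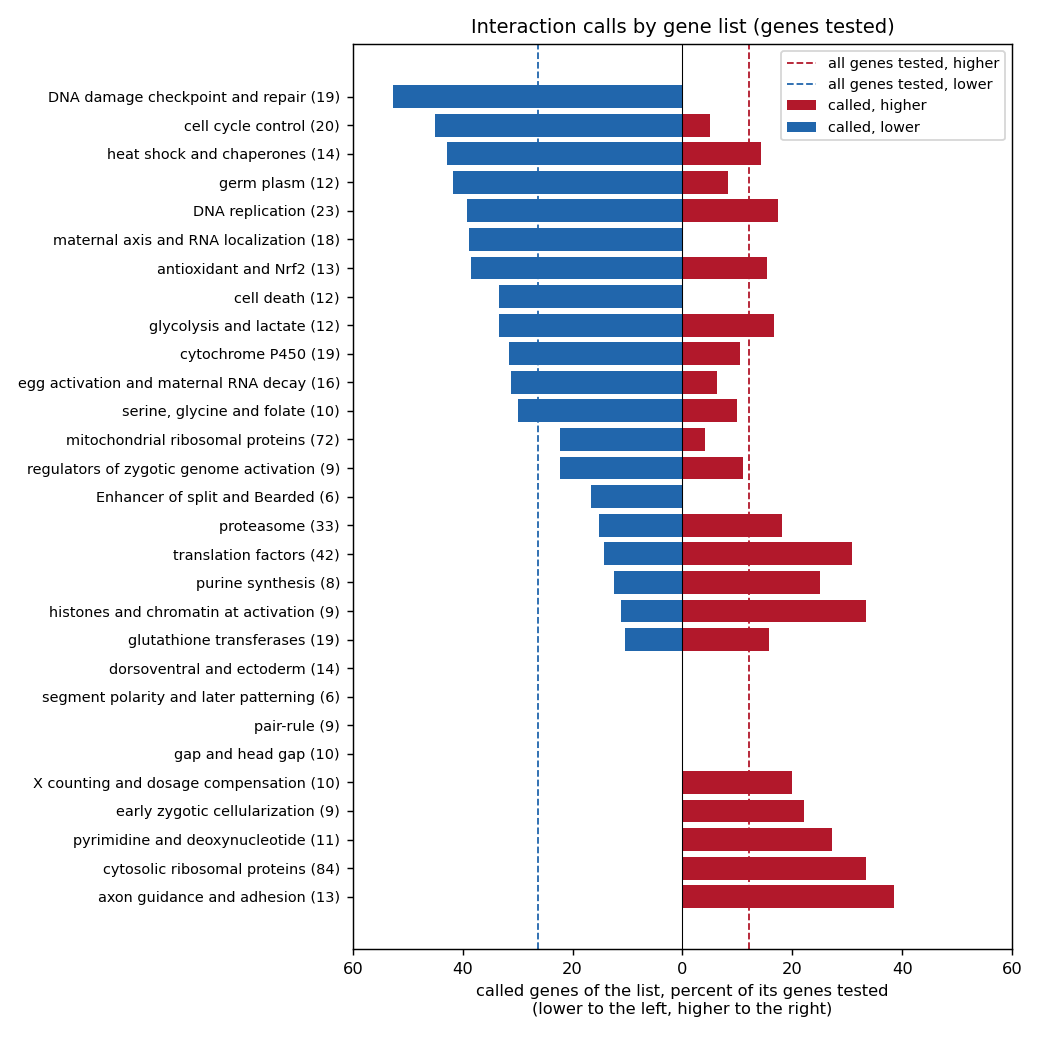
Share of the tested genes of each list that were called lower (left, blue) and higher (right, red), in percent, with the number tested in parentheses and the shares of all 6884 genes as dashed lines (26.3% lower, 12.2% higher). DNA repair, cell cycle and germ plasm genes stand to the left, guidance genes and cytosolic ribosomal proteins to the right, and 4 patterning lists have no call.

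The enzymes near SHMT in metabolism were called about as often as all genes. Of 10 genes tested for serine, glycine and folate, 3 were lower and 1 was higher, close to the 26.3% and 12.2% of all genes, and 7 were lower with library sizes alone. CG6287, the phosphoglycerate dehydrogenase that starts serine synthesis, had 8.27, 10.7 and 10.4 CPM in wild type against 40.8, 50.6 and 39.5 CPM in the mutants at the 0–1 hr label, and 174 to 182 against 195 to 216 CPM at the other. SHMT was above wild type at both labels, but the difference at the second did not pass the test (adjusted p = 0.41). The gap narrowed from the first label to the second (log2 interaction −1.97 ± 0.16, adjusted p = 1.3e-05). CG11899, the phosphoserine aminotransferase of the next step (−0.92), and ppl, a protein of the glycine cleavage system (−1.66), were lower, while pug, the trifunctional enzyme of tetrahydrofolate, was higher (0.90). pug missed the threshold without 7 of the 12 single libraries (adjusted p = 0.050 to 0.066). SHMT itself (CG3011) was not called (−0.35 ± 0.21, adjusted p = 0.21), with 3.38 to 4.67 CPM in wild type against 5.57 to 7.37 CPM in the mutants at the 0–1 hr label and 77.5 to 88.1 against 91.5 to 123 CPM at the other. The X238 allele changes the protein, so the level of its RNA does not check the genotype.

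In the purine pathway ade5 was lower (−1.24) and ade3 (0.75) and CG17273, the adenylosuccinate synthetase (0.49), were higher, of 8 tested. In this list 37.5% were called, against 38.5% of all genes tested, where 26.3% were lower and 12.2% higher. Of 11 pyrimidine and deoxynucleotide genes 3 were higher (27.3%, against 12.2% of all genes) and none was lower. The 3 were the ribonucleotide reductase RnrL (0.41), dUTPase (0.43) and the uridylate synthase r-l (0.82). Those 3 calls and the higher calls in the purine list were lost with library sizes alone, where 2 genes of each list were lower instead. CG17273, RnrL, r-l and ade3 also lost their calls without 9, 8, 6 and 6 of the 12 single libraries (adjusted p up to 0.096). Of 12 genes of glycolysis, 4 were lower, among them Hex-A (−1.75), PyK (−1.33) and Gapdh2 (−0.97), and 2 were higher. That is 50% called, against 38.5% of all genes tested. ImpL3, the lactate dehydrogenase, had 13.5 to 15.3 against 8.21 to 11.5 CPM at the 0–1 hr label and 0.247 to 0.542 against 0.604 to 0.954 CPM at the other. The genotypes did not overlap and changed order, but the second difference did not pass the test (adjusted p = 0.053, against 0.025 at the first). It rests on 41 counts in wild type and 69 in SHMT. The SHMT libraries all lay above wild type at that label for 14.5% of all genes tested. The log2 interaction of ImpL3 was 1.73 ± 0.37 (adjusted p = 0.0040).

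Among stress and detoxification genes, heat shock, antioxidant and cytochrome P450 genes had more lower than higher calls, as did all genes tested (26.3% and 12.2%). Of 14 heat shock and chaperone genes 6 were lower and 2 higher. Hsp27 had 42.8, 68.6 and 61.1 CPM in wild type against 256, 344 and 229 CPM in the mutants at the 0–1 hr label, and 1214 to 1403 CPM over both genotypes at the other (−2.26 ± 0.25, adjusted p = 5.6e-05). DnaJ-1 (−1.76), Hsc70-5 (−1.63) and Hsp83 (−1.22), the fly's Hsp90, were lower in the same way. In the antioxidant list 5 of 13 were lower, including cnc (−1.82), the fly's Nrf2, Gclc (−1.65), which makes the first bond of glutathione, Trx-2 (−1.89) and dhd (−0.70), a thioredoxin of the egg, and 2 were higher.

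Of 19 glutathione transferases tested, GstD3, CG5224 (now GstE11, 1.01) and GstS1 (0.43) were higher and GstE8 (−1.92) and GstD1 were lower. Together 26.3% of the list were called, against 38.5% of all genes tested. GstS1 was not called with library sizes alone (0.19, adjusted p = 0.17) or with any gene of at least 1 count (0.35, adjusted p = 0.087). GstE8 had 4.40 to 5.07 CPM in wild type against 25.5 to 30.8 CPM in the mutants at the 0–1 hr label, and 9.66 to 18.8 against 20.2 to 23.6 CPM at the other. Of 19 cytochromes P450 tested, 6 were lower, among them Cyp6a17 (−1.94), Cyp6u1 (−1.59) and Cyp4e2 (−0.90), and Cyp6d2 and Cyp18a1 were higher. The P450 calls made up 42.1% of the list, against 38.5% of all genes tested. Cyp18a1, which inactivates ecdysone, had 2.57 to 3.64 CPM in wild type against 0.0907 to 0.258 CPM in the mutants at the 0–1 hr label. Its fitted interaction of 5.71 (4.85 without replicate 2 of the 1.5–2.5 hr SHMT group) depends on the prior count, since the 1.5–2.5 hr libraries held 2 counts in wild type and 6 in SHMT.

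The cytosolic ribosomal proteins were higher in part, by small amounts. Of 84 tested, 28 were higher and none was lower, against 12.2% and 26.3% of all genes, with a median log2 interaction of 0.26. With library sizes alone 6 were higher and 1 was lower (median 0.03), and with DESeq2 72 were higher, so the count depends on the scaling. RpL22 was the exception in size, at 908, 818 and 1181 CPM in wild type against 266, 261 and 537 CPM in the mutants at the 0–1 hr label. Replicate 3 of SHMT stood apart there, and the 1.5–2.5 hr libraries overlapped at 179 to 332 CPM (1.86 ± 0.37, adjusted p = 0.0025). RpLP0 (1.13), sta (1.12) and sop (0.72) followed it.

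Translation factors were higher in 13 and lower in 6 of 42, against 12.2% and 26.3% of all genes tested. Among the first were eIF6 (1.27), Rbp2 (0.84), Ef1alpha48D (0.76) and eIF-1A (0.67) and among the second the cap-binding protein eIF-4E (−1.12). With library sizes alone the split was 7 higher to 12 lower, and the list median turned from 0.18 to −0.06. Of 33 proteasome genes 6 were higher and 5 lower, 33.3% called against 38.5% of all genes tested. The lower ones included the lid subunits Rpn5 (−1.17), Rpn9 (−0.86) and Rpn3 (−0.65). The proteasome list median turned from 0.17 to −0.07 with library sizes alone. Of 72 mitochondrial ribosomal proteins 16 were lower, among them mRpL21 (−1.68) and mRpS35 (−1.38), and 3 higher, neither share above that of all genes (26.3% and 12.2%). With library sizes alone 30 were lower and 1 was higher. Of 9 histone and chromatin genes 44.4% were called, against 38.5% of all genes tested. The variants His2Av (0.44), His3.3A (0.48) and His3.3B (0.44) were higher and CG3509, now BigH1, the linker histone of the early embryo, was lower (−1.08). None of the 3 variants was called with library sizes alone (adjusted p = 0.066 to 0.18), and His3.3B was not without 8 of the 12 single libraries.

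**Figure D5:**
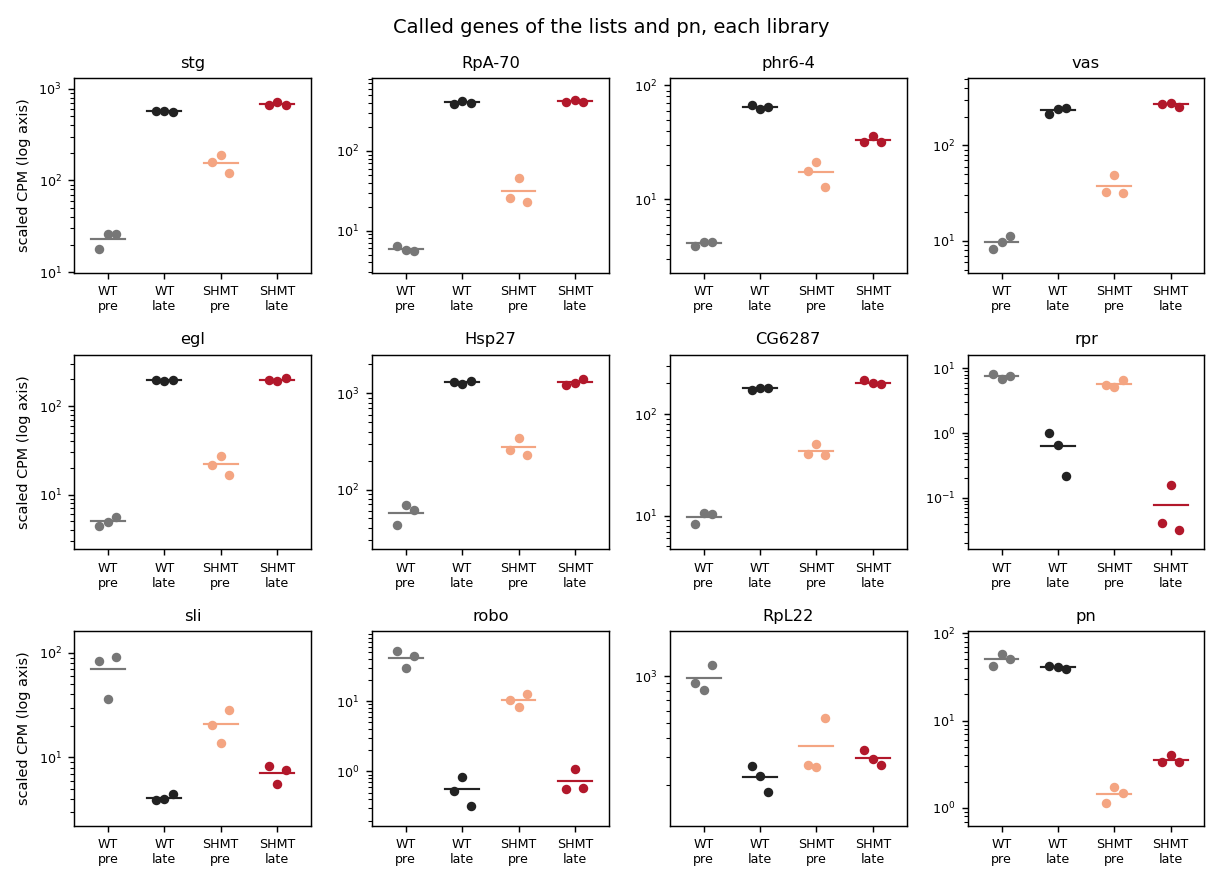
Scaled CPM on a log axis in each of the 12 libraries for 11 called genes of the lists and for pn, with a bar at the group mean (pre, 0–1 hr label; late, 1.5–2.5 hr label). The SHMT 0–1 hr libraries lie above the wild-type ones in stg (120 to 187 against 17.8 to 25.8 CPM) and in the next 6 genes, below them in sli, robo, RpL22 and pn, and slightly below in rpr.

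The marker gene pn, which the mutant chromosome carries in mutant form, was low in SHMT at both labels and was called for a difference in degree. It had 42.5, 57.3 and 50.4 CPM in wild type against 1.14, 1.72 and 1.49 CPM in the mutants at the 0–1 hr label, and 41.9, 41.3 and 38.5 against 3.35, 4.01 and 3.37 CPM at the other. The log2 difference was −5.10 and −3.50, and the interaction 1.60 ± 0.22 (adjusted p = 2.4e-04). Of regulators of zygotic genome activation, Hira (−1.59), a chaperone of histone H3.3, and BigH1 were lower and psq (0.75) was higher of 9 tested. In that list 33.3% were called, against 38.5% of all genes tested. psq missed the threshold without each of 10 of the 12 single libraries (adjusted p = 0.051 to 0.090) and with library sizes alone (0.51). vfl, the activator Zelda, was not called (0.85, chosen after its values were seen).

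In the assembly Release 6 plus ISO1 MT, the X chromosome held 20.7% of the higher and 18.3% of the lower genes against 17.3% of all genes tested, and 24.5% and 21.5% of those over 4-fold. Gene spans, taken from the Release 6 annotation for at least 98.0% of each set, had a median of 3878 bases in the higher genes, 2768 bases in the lower genes and 2832 bases in all genes tested. Spans over 20000 bases made up 12 of the 48 higher genes over 4-fold with a span (25%), 4 of 171 lower ones (2.34%) and 7.79% of all genes. These shares are descriptions with no test.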

How the data were processed

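Whole embryos of 2 genotypes and 2 collections gave 12 libraries. For each library the authors deposited whole-number counts of reads in 14161 genes. The submitters' processing notes list CASAVA 1.8.2, Bowtie2 2.1.0, HTSeq and the build dm3. Whether counting used strand is not given in the sources used here. Reads of overlapping genes cannot be told apart. The 5 summary lines stayed out: 4.57 to 11.7% of reads lay outside genes and 1.33 to 1.53% were ambiguous. Symbols were matched to Release 6 plus ISO1 MT (10669 current, 3235 synonyms, 257 not matched), and since the files use dm3 no coordinates are given.

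The deposited counts were used as they stand. Genes averaging at least 50 counts in some group entered edgeR 4.0.16 (limma 3.58.1, R 4.3.3), a quasi-likelihood fit of 4 group means to all 12 libraries with TMM scaling. The interaction contrast was adjusted by Benjamini-Hochberg over 6884 genes. A call is an adjusted p under 0.05, over 4-fold where stated. Named genes were the 12 highest and 12 lowest interactions over 4-fold with at least 100 counts in the highest group, up to 4 called members per list by adjusted p, the 8 crossing genes with the lowest adjusted p, and genes of the study's text. Members and lists were chosen with earlier results of these data known. The fit was tested on simulated data. Alternatives were 2 scalings, DESeq2 1.42.0, other count minimums and thresholds, a replicate block and left-out libraries. Promoter letters were not analysed here. Figures were drawn with matplotlib.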

Additional observations from a re-analysis of the deposited data

Results flagged for a closer look

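The stage change differed between genotypes in 839 genes called higher and 1810 called lower at any fold, 49 higher and 172 lower over 4-fold, and 49 whose genotype differences had opposite signs at the labels. These counts stand here because the difference itself was tested. The named genes with opposite differences were CG5285 (log2 interaction −3.46), rux (−3.33), phr6-4 (−3.03), CG11534 (−2.50), CG8027 (−1.89), slif (−1.81), CG2144 (−1.40) and CG6915 (8.03). CG6902, the other older model of CG43163 beside CG6915, averaged under 50 counts and was not tested. It had 20 counts over the SHMT libraries labelled 1.5–2.5 hr and 2 over the wild-type ones, against 9 and 41 at the 0–1 hr label, the same order as in CG6915 (1614 and 46, 307 and 1896 counts).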

How the results depend on the processing

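Higher calls at any fold numbered 839, and 403 with library sizes alone, 1488 with DESeq2, 292 at an adjusted p under 0.01 and 553 without the pair of 0–1 hr libraries that had over 11% of their reads outside genes. Lower calls over 4-fold numbered 172, and 278 with library sizes alone and 12 when the limit was tested itself. Higher calls over 4-fold numbered 49, and 102 with any gene of at least 1 count, 81 with filterByExpr, 26 with a mean of 200 counts, 28 at an adjusted p under 0.01, 29 without that pair and 2 when the limit was tested itself. Crossing genes numbered 49, and 103 with DESeq2 and 11 at an adjusted p under 0.01. Leaving out each library in turn gave 531 to 1050 higher and 1506 to 1920 lower calls, 39 to 72 and 119 to 210 over 4-fold, and 22 to 111 crossing genes. The causes were not tested, beyond the genes and samples each setting removes.

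Replicate numbers paired some libraries and not others. Of 18 same-number pairs, 6 deviated together at a correlation over 0.1 (−0.24 to 0.54), and 6 of 12 libraries correlated best with their own number. The highest values lay between the genotypes at the late blastoderm label, 0.53 for replicate 2 and 0.54 for replicate 3. Wild-type replicate 2 with SHMT replicate 3 gave −0.52 there, and wild-type replicate 3 with SHMT replicate 2 gave −0.63. For replicate 1 the value was −0.24. The reason was not tested. With the replicate block 845 genes were higher and 1750 lower, 47 and 163 over 4-fold.

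Of the 123 named genes, Z600 changed sign, with no call in any setting (0.09, and −0.14 with library sizes alone, −0.0069 with at least 1 count, −0.22 without that pair, −1.95 to 1.32 without single libraries).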
